A study of Mus musculus with 16 samples.

Results

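The acute phase proteins followed here are 10 plasma proteins of the liver, chosen by gene name: the serum amyloid A genes *Saa1*, *Saa2* and *Saa3*, the orosomucoid genes *Orm1* and *Orm2*, lipocalin 2 (*Lcn2*), haptoglobin (*Hp*), the pentraxins *Crp* and *Apcs*, and the fibrinogen gamma chain (*Fgg*). Every probe whose RefSeq accession in the array design belongs to these genes was taken, which gave 11 probes for 10 genes out of 41174 probes and 19096 named genes. *Saa1* had 2 probes and each other gene had 1. All 11 probes were well above background on 16 of 16 arrays, and none was marked as saturated. That mark does not show whether a very bright signal still rises in proportion to the RNA.

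The arrays held liver RNA of male mice, 1 mouse per array. Mice were wild type (WT, C57BL/6J) or lacked functional *Gadd45b*, a stress-induced gene (KO, a targeted null allele on a stock of mixed strain origin by its name). Every mouse, controls included, received the carcinogen N-diethylnitrosamine (DEN) at 90 mg/kg when 5 weeks old. Mice of the DEN + PB groups also received phenobarbital (PB) in drinking water, 0.5 g/l, starting at an age of 7 weeks, and tissue outside tumours was taken at 57 weeks, which gave 4 groups of 4. PB activates the nuclear receptor CAR in hepatocytes and promotes liver tumours after DEN. The null allele and any difference in strain background cannot be told apart. The null allele is present in every cell of the mouse, and no mouse without DEN is among the samples.

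In an acute phase response, interleukin 6 and interleukin 1 reach the hepatocyte, and STAT3, NF-kB and C/EBP factors then switch on a set of secreted proteins. Serum amyloid A proteins travel on high density lipoprotein, orosomucoids are drug-binding lipocalins of plasma, haptoglobin captures free haemoglobin and fibrinogen makes the clot. The pentraxin serum amyloid P, encoded by *Apcs*, is a strong acute phase reactant of the mouse, whereas *Crp* responds weakly in this species. Negative acute phase genes, such as those of albumin and transthyretin, fall at the same time.

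Levels are given as log2 of the processed signal relative to the 75th percentile of the same array, so that 0 is the 75th percentile and 1 unit is a doubling. They are compared across mice and never between genes, because probes differ in brightness. A gene was called changed in limma at a Benjamini-Hochberg adjusted p under 0.05 over all 24456 probes tested and a change of at least 1.5-fold. Both *Gadd45b* probes cleared background in 8 of 8 WT mice and in 0 of 8 KO mice. All 11 hepatocyte markers that have a probe were above background, with a summed level of 1438 to 2230 on each array relative to its 75th percentile. The 75th percentile itself ran from 136.9 to 294.3 signal units over the 16 arrays.

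In 3 of the 4 groups, KO DEN + PB being the exception, the 3 serum amyloid A genes spanned a wider range between mice than the 4 group means did. Their levels reached their highest values on the same 2 arrays, replicates 2 and 4 of KO DEN. *Saa2* stood at 5.22, 3.70, 4.58 and 4.09 in the WT DEN mice and at 4.62, 4.50, 3.92 and 5.50 in the WT DEN + PB mice. It stood at 4.31, 6.72, 4.18 and 5.94 in the KO DEN mice, against 4.98, 5.06, 5.29 and 4.79 in the KO DEN + PB mice. Replicates 2 and 4 of KO DEN were thus above each other array, while replicates 1 and 3 of the same group lay inside the WT DEN range. In unscaled processed signal those arrays read 17136.9 and 14582.7, and the other 14 arrays lay between 3585.7 and 7944.3.

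*Saa1* repeated this order with a smaller span. The KO DEN mice had 3.83, 5.91, 4.00 and 5.48, the WT DEN mice 4.92, 3.33, 4.02 and 3.83, the WT DEN + PB mice 4.21, 4.11, 3.52 and 5.00, and the KO DEN + PB mice 4.63, 4.59, 4.57 and 4.35. Its second, dimmer probe gave 3.36, 5.60, 3.31 and 5.14 in the KO DEN mice, again with replicates 2 and 4 on top. *Saa3*, which macrophages and fat cells also make, stood at 2.00, 3.56, 1.76 and 3.08 in KO DEN and between 1.18 and 2.78 on the 12 other arrays. The groups of all 3 genes overlapped. RefSeq lists *Saa1* and *Saa2* as older names of each other, and cross-hybridisation between the genes was not tested, so which of them a probe reads is uncertain.

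**Figure D1:**
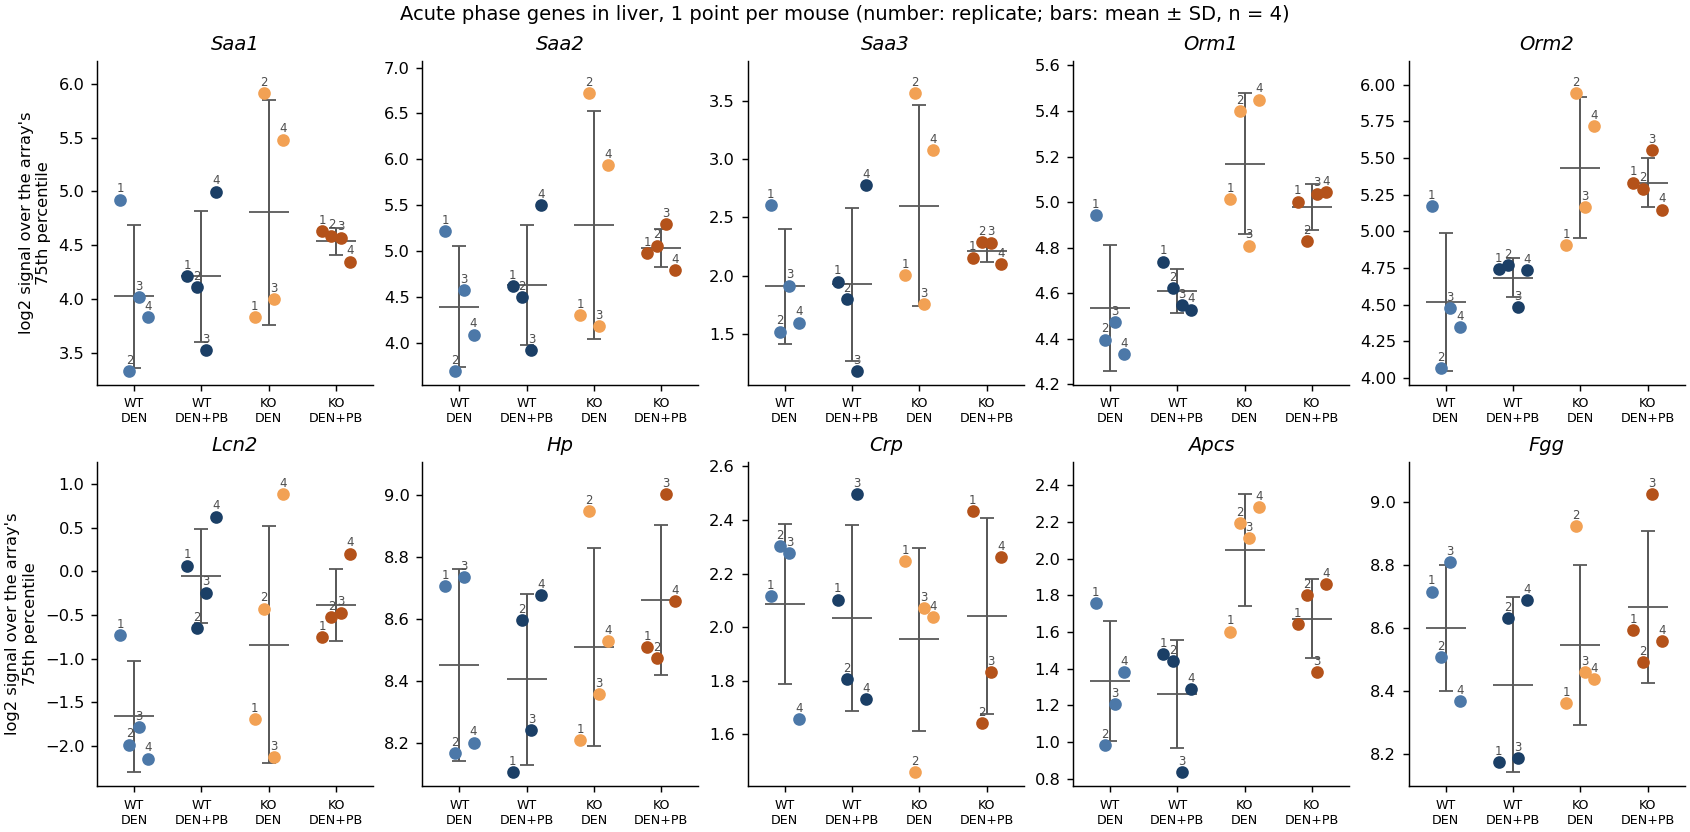
Log2 level relative to the array's 75th percentile (y axis) of the 10 genes in the 4 groups (x axis), with 1 point per mouse, its replicate number, and the group mean with SD (n = 4). *Saa1*, *Saa2* and *Saa3* peak in KO DEN replicates 2 and 4, and both KO means lie above both WT means for these genes and for *Orm1*, *Orm2*, *Apcs* and *Hp* (each panel has its own y axis).

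The spread of these 3 genes was widest in KO DEN and narrowest in KO DEN + PB. The SD of *Saa2* was 1.25 log2 units in KO DEN, larger than that of 99.3% of the 13302 genes tested, against 0.66 in WT DEN, 0.65 in WT DEN + PB and 0.21 in KO DEN + PB (n = 4 each). In the same groups, KO without and KO with PB, *Saa1* had SDs of 1.05 and 0.13 and *Saa3* had 0.86 and 0.094. In KO DEN + PB the *Saa3* SD was larger than that of only 6.8% of genes. The 4 KO mice that drank PB therefore lay closer together in serum amyloid A level than the 4 that did not. No test of these spreads was run.

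Other members followed the serum amyloid A genes from mouse to mouse within the groups. After the group means were removed, the deviations of *Saa1* and *Saa2* had Pearson r = 0.98 and Spearman rho = 0.95 over the 16 arrays (permutation p = 0.00013 and 0.00014, shuffled within groups, adjusted p = 0.00048 and 0.00063 over 9 relations), and r was 0.98 without the 2 arrays farthest from the median. *Saa3* gave r = 0.97 and rho = 0.95 (permutation p = 0.00016 and 6e-05, adjusted 0.00048 and 0.00054), with r = 0.97 without 2 arrays. *Orm2* gave r = 0.90 and rho = 0.87 (permutation p = 0.00016 and 0.00199, adjusted 0.00048 and 0.00597), with r = 0.84 without 2 arrays. *Lcn2* gave r = 0.76 and rho = 0.74 (permutation p = 0.02429 and 0.02085, adjusted 0.0363 and 0.0397), with r = 0.77 and an adjusted p of 0.0724 without 2 arrays. All levels on an array share its scaling, and under quantile normalization r stayed at 0.97 to 0.98 for *Saa2* and *Saa3* and was 0.84 for *Orm2*, 0.78 for *Lcn2*, 0.69 for *Hp*, 0.65 for *Apcs* and 0.56 for *Orm1* (adjusted p = 0.0288 for *Orm2*, *Lcn2*, *Hp* and *Apcs*, and 0.155 for *Orm1*).

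*Crp* ran the other way, with r = -0.52 and rho = -0.51 (permutation p = 0.05438 and 0.06576, adjusted 0.0544 and 0.0789), which did not pass 0.05, and r = -0.33 without 2 arrays. Under quantile normalization its r was -0.59 (adjusted p = 0.0288). *Fgg* gave r = 0.57 and rho = 0.50 (permutation p = 0.02824 and 0.07136, adjusted 0.0363 and 0.0789) but r = 0.00 under quantile normalization (adjusted p = 0.992), so its relation was not found under that scaling. *Orm1*, *Hp* and *Apcs* had r of 0.74, 0.70 and 0.65 (permutation p = 0.04077, 0.00799 and 0.01697, adjusted 0.0459, 0.0180 and 0.0306), with rho of 0.68, 0.65 and 0.53 (permutation p = 0.04979, 0.02204 and 0.07888, adjusted 0.0747, 0.0397 and 0.0789). Leaving out the 2 farthest arrays took these to 0.71, 0.57 and 0.59 with adjusted p of 0.127, 0.0785 and 0.0785, none of which passed 0.05, while the r of *Orm1* changed little.

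**Figure D2:**
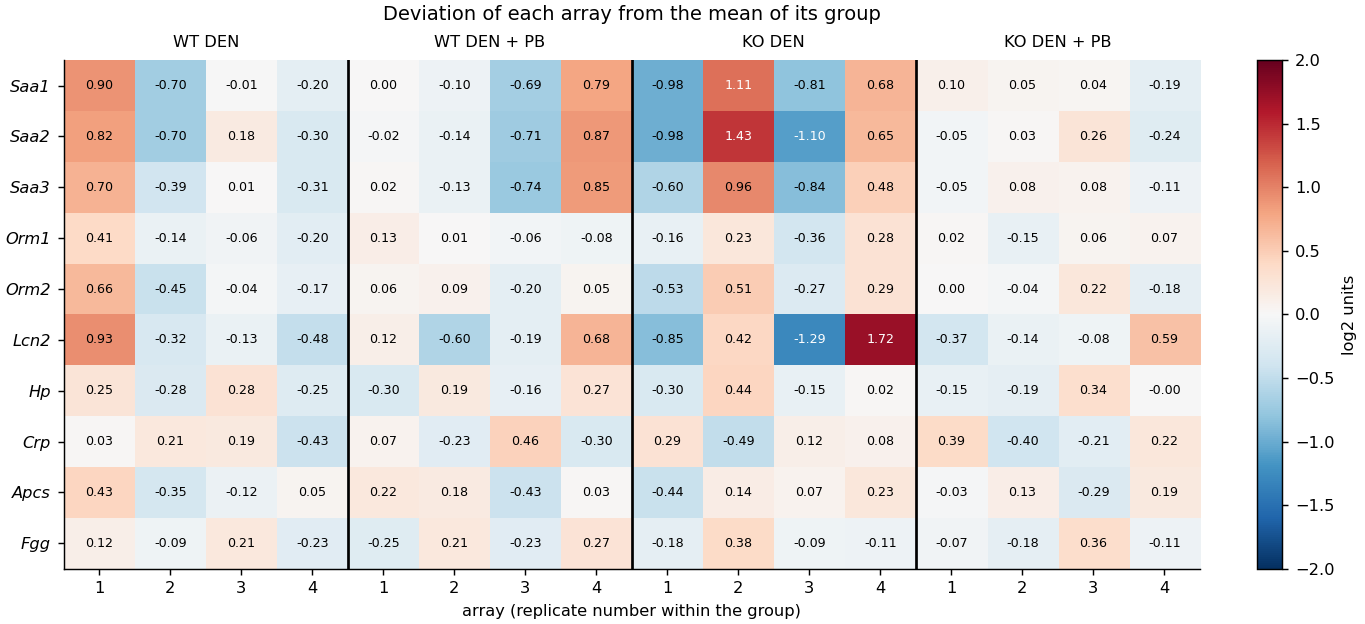
Deviation of each of the 16 arrays (x axis, replicate number in each group) from the mean of its group, in log2 units (colour and printed value), for the 10 genes (y axis). WT DEN replicate 1 and KO DEN replicates 2 and 4 are above their group means in nearly all genes, with the deepest colours in *Saa2* (1.43) and *Lcn2* (1.72), whereas KO DEN + PB is pale except for *Lcn2* in replicate 4 (0.59).

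Counted over the members, WT DEN replicate 1 was above its group mean in 10 of 10 genes, and KO DEN replicates 2 and 4 were above theirs in 9 of 10 each. KO DEN replicates 1 and 3 were above it in 1 and 2 of 10 genes. Of the 43 other positive acute phase genes tested, 33 were above the group mean in WT DEN replicate 1, 30 in KO DEN replicate 2 and 25 in KO DEN replicate 4. The median deviation of those 43 genes was 0.15, 0.24 and 0.09 on the 3 arrays, against 0.54, 0.43 and 0.28 for the 10 members. Of the 19 negative acute phase genes, 16, 12 and 7 were above the group mean on those arrays, with median deviations of 0.21, 0.086 and -0.058. Of all tested genes, 57.3%, 59.0% and 42.9% were above it.

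The sequences before the start sites are shown for *Saa1*, *Saa2*, *Saa3*, *Orm2* and *Lcn2*, the members with C/EBP letters, and for *Apcs*, which carries other motifs. The choice was made by these letters. *Orm1*, *Hp*, *Apcs* and *Fgg* also followed *Saa1* from mouse to mouse by the adjusted permutation p of r, but of these only *Hp* passed 0.05 by rho. Under quantile normalization the r of *Orm1* and *Fgg* did not pass (adjusted permutation p = 0.155 and 0.992). The sequences are the 250 bases before the RefSeq start on GRCm38.p6, read 5′ to 3′ along the gene. Capitals mark matches on either strand to TTGCNNAA (C/EBP), TTCNNNGAA (STAT) or CTGGGAA (a type 2 interleukin 6 response element), where N is any base.
Saa1, chr7:46742981-46743230, minus strand: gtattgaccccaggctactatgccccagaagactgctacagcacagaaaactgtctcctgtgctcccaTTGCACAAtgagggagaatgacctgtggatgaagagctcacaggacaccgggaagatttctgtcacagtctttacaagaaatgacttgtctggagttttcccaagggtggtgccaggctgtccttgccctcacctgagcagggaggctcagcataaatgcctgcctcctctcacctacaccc
Saa2, chr7:46751583-46751832, plus strand: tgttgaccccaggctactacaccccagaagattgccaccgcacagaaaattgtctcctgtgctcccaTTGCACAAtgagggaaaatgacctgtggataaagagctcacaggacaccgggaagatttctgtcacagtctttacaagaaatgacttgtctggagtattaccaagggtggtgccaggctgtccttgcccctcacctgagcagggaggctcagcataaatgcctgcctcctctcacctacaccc
Saa3, chr7:46715677-46715926, minus strand: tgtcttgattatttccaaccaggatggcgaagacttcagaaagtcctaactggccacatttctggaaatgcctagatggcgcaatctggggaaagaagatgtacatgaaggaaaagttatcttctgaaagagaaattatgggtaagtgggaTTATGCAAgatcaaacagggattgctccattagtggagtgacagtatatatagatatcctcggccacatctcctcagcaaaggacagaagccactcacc
Orm2, chr4:63362199-63362448, plus strand: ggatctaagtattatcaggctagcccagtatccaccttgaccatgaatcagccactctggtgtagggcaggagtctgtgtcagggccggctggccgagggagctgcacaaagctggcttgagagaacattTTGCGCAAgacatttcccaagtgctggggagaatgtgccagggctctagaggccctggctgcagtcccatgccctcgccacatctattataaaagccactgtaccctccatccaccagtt
Lcn2, chr2:32387740-32387989, minus strand: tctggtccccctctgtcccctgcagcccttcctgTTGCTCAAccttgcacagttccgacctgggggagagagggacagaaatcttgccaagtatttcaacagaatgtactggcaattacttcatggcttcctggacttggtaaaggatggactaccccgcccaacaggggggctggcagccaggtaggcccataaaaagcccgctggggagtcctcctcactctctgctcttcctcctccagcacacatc
Apcs, chr1:172895055-172895304, minus strand: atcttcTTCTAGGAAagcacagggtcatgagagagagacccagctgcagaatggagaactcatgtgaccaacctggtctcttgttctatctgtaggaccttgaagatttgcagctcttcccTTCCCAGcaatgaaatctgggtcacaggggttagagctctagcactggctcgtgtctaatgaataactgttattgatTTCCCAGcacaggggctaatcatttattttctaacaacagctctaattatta

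*Saa1* and *Saa2* point away from each other on chromosome 7 with 8853 bases between their starts, and *Saa3* lies 27304 bases from *Saa1*. The *Saa1* and *Saa2* windows were 94.8% identical over 251 alignment columns, against 50.2% for *Saa1* and *Saa3*. The C/EBP letters were in 5 of the 8 members with a RefSeq promoter, the 5 genes named above, and in 9.56% of 32851 promoters of the same length. In *Saa1* and *Saa2* the match was TTGCACAA in both, beginning at positions -182 and -183 counted back from the start. *Orm2* had TTGCGCAA, which reads alike on both strands, and *Saa3* had its match on the opposite strand.

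Of the other letters, the STAT motif was in *Apcs* alone among the 8 members (7.02% of all promoters), and CTGGGAA was in *Apcs* and *Fgg* (9.1% of all promoters). The NF-kB letters GGGANTTCC were in 0 of 8 (1.43% of all promoters), and the TATAAA letters were in *Orm2* and *Crp* (12.4% of all promoters). The windows of *Crp*, on chromosome 1 with *Apcs*, and of *Fgg*, on chromosome 3, held no C/EBP letters. *Orm1* and *Hp* were not in the promoter table. A match is a description of letters, not a site or a cause, and the absence of a match says only that these letters are not in this window.

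Of the 10 members, *Orm2* alone passed the threshold between genotypes. *Orm2* stood at 5.17, 4.07, 4.48 and 4.35 in the WT DEN mice and at 4.91, 5.94, 5.17 and 5.72 in the KO DEN mice. The ranges overlapped through WT DEN replicate 1, and 2 of the 4 KO DEN arrays were above every WT DEN array. *Orm2* was 1.89-fold higher in KO DEN (log2 change 0.92 ± 0.24 SE, limma adjusted p = 0.0472), the only member called in any comparison, where 2.76% of the 13302 genes by brightest probe were called. The exact permutation test over the 8 mice gave p = 0.0857, two-sided.

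The call held in only 8 of 28 alternatives and was lost in the rest. With slide as a block the change was 0.82 (adjusted p = 0.137), and within the 2 slides that hold both groups it was 0.77 and 0.43. It fell to 0.52 (adjusted p = 0.529) without KO DEN replicates 2 and 4, a setting chosen after their *Saa* values were seen.

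With PB neither orosomucoid overlapped between genotypes. *Orm2* stood at 4.74, 4.77, 4.48 and 4.74 in WT DEN + PB and at 5.33, 5.29, 5.55 and 5.15 in KO DEN + PB, with every KO mouse above every WT mouse. The log2 difference was 0.65 ± 0.24 SE (limma adjusted p = 0.115, not called), the exact permutation p was 0.0286, the smallest that 4 against 4 allow, and the difference was above 0 within each of the 4 slides, from 0.38 to 1.07. *Orm1* did likewise: 4.74, 4.62, 4.55 and 4.53 in WT DEN + PB against 5.00, 4.83, 5.04 and 5.05 in KO DEN + PB. Its log2 difference was 0.37 ± 0.17 SE (limma adjusted p = 0.202, exact permutation p = 0.0286). Hence 2 of 10 members did not overlap upward there, where 7.48% of genes did so, and 0 of 10 members were called, where 7.6% of genes were. In the unscaled signal neither gene was free of overlap, where the median change of all genes between these groups was -0.31.

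Without PB, *Orm1* stood at 4.94, 4.40, 4.47 and 4.33 in WT DEN and at 5.01, 5.40, 4.81 and 5.45 in KO DEN, so that 3 of 4 KO mice were above all WT mice. The change of 0.63 ± 0.17 SE missed the threshold (limma adjusted p = 0.0513, exact permutation p = 0.0571). *Apcs* showed the same pattern, with 1.76, 0.98, 1.21 and 1.38 in WT DEN and 1.60, 2.19, 2.11 and 2.28 in KO DEN. Its change was 0.71 ± 0.20 SE (limma adjusted p = 0.0664, exact permutation p = 0.0571). On the unscaled signal *Orm1*, *Orm2* and *Apcs* did not overlap at all, at 4236.0 to 5821.3 against 6637.5 to 10410.3 for *Orm1*, 4255.0 to 6299.6 against 8507.4 to 12551.0 for *Orm2*, and 440.6 to 623.2 against 742.8 to 1155.5 for *Apcs*. These are 3 of 10 members, where 3.65% of genes had every KO DEN array above every WT DEN array on that scale. On the scaled levels 0 of 10 members did so, where 4.6% of genes did.

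*Apcs* with PB stood at 1.48, 1.44, 0.84 and 1.29 in WT and at 1.64, 1.80, 1.38 and 1.86 in KO. Of the 4 KO mice, 3 were above all WT mice, and the difference was 0.41 ± 0.20 SE (limma adjusted p = 0.243, exact permutation p = 0.0857). It was above 0 within each of the 4 slides, from 0.32 to 0.54.

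The serum amyloid A genes were not called between genotypes. Under DEN their log2 changes were 0.78 ± 0.43 SE for *Saa1*, 0.89 ± 0.49 SE for *Saa2* and 0.69 ± 0.38 SE for *Saa3* (limma adjusted p = 0.331, 0.323 and 0.322). Without KO DEN replicates 2 and 4 these became -0.11, -0.15 and -0.030, so the sign of the difference in means turned without those mice. *Hp*, *Fgg* and *Crp* had changes from -0.13 to 0.06 under DEN, with 95% intervals between -0.62 and 0.49. The scaled levels of *Hp* and *Fgg* followed the array's 75th percentile (r = -0.94 and -0.93), and its part in their changes was not tested.

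Over all 10 members, 8 were higher in KO than in WT under DEN, with a median log2 change of 0.70 against -0.04 for all genes. Without KO DEN replicates 2 and 4 the count was 4 of 10 and the median -0.07. Under median scaling, which moves the median of all genes to -0.13, it was 7 of 10, and under quantile normalization it was 8 of 10. Under DEN + PB, 9 of 10 were higher in KO, with a median of 0.30 against 0.03 for all genes, but without any scaling 4 of 10 were, against a shift of -0.31 over all genes. The rise was not particular to the members. The scaled median was 0.31 for the hepatocyte markers (10 of 11 higher) and 0.24 for the other positive acute phase genes (34 of 43). It was 0.28 for the negative acute phase genes (16 of 19). The mean 75th percentile was 186.5 in KO DEN + PB and 239.2 in WT DEN + PB.

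**Figure D3:**
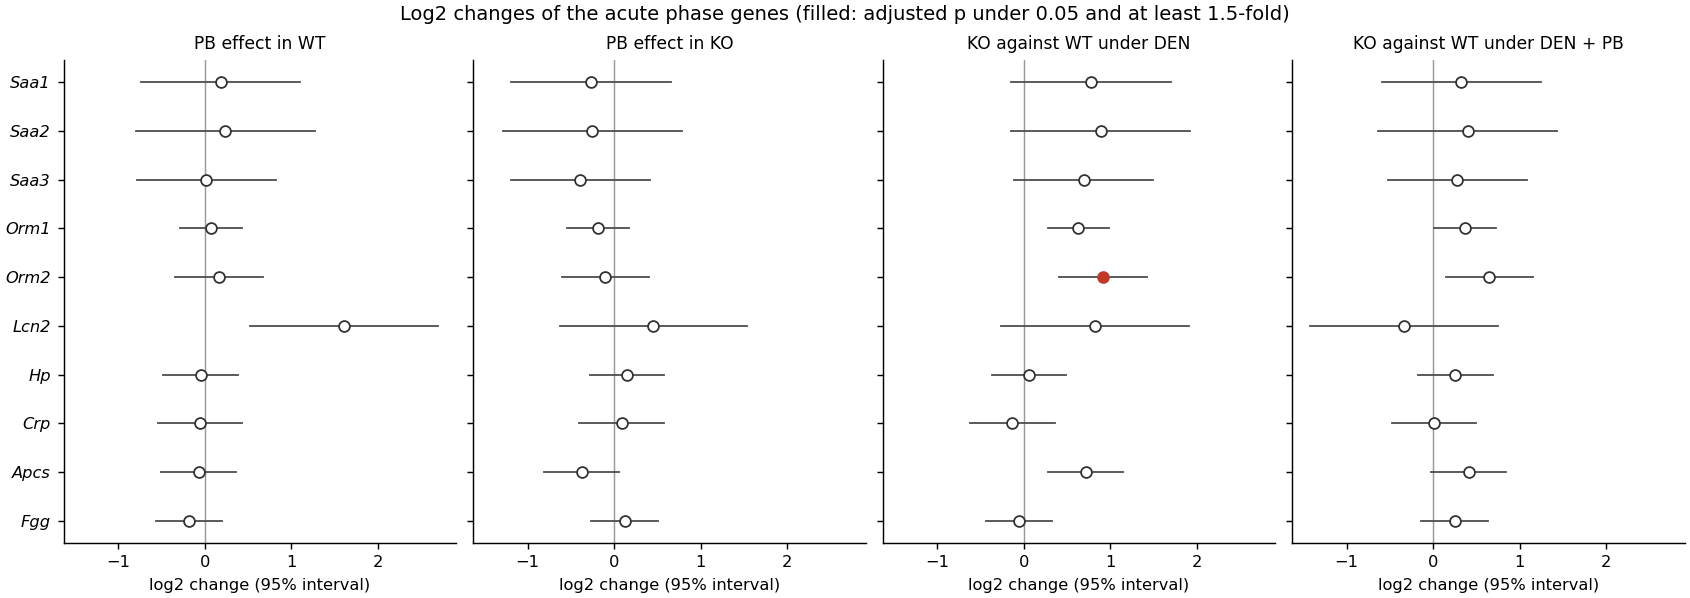
Log2 changes (x axis) with 95% intervals from limma for the 10 genes (y axis) in 4 comparisons of 4 against 4 mice. The filled point, *Orm2* in KO against WT under DEN, is the only change called, and the *Saa* and *Lcn2* intervals are the widest.

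Cell type markers moved with genotype as well. Of all genes, 2.76% were called in either direction under DEN and 7.6% under DEN + PB. Of the 12 macrophage and Kupffer cell markers, 6 were called lower in KO under DEN and 10 under DEN + PB. Called or not, 12 and 11 of them were lower. Their summed levels were 73.8 to 247.0 in WT DEN, 89.0 to 102.9 in WT DEN + PB, 48.9 to 67.5 in KO DEN and 34.3 to 68.4 in KO DEN + PB. Of the 7 endothelial markers, 2 were called lower in KO under DEN and 3 under DEN + PB, and 6 and 7 were lower. The endothelial sums did not overlap between genotypes, at 38.6 to 48.3 against 19.0 to 32.4 under DEN and at 36.5 to 43.4 against 19.1 to 22.7 with PB. With PB the sums of the stellate cell, biliary and lymphocyte markers did not overlap either, and without PB each of these 3 overlapped. With PB the stellate sums were 75.7 to 102.1 in WT and 51.2 to 61.2 in KO, with 4 of 8 markers called lower. The biliary sums were 17.7 to 35.5 in WT and 12.03 to 15.53 in KO, with 3 of 5 called lower. Lymphocyte sums were 2.67 to 3.10 in WT and 1.20 to 2.09 in KO, with 2 of 8 called lower. Of the 8 neutrophil markers tested, 0 were called under DEN and 3 were called lower under DEN + PB, where 7 were lower. The neutrophil sums did not overlap with PB, at 4.73 to 6.04 in WT and 2.32 to 3.61 in KO, and overlapped without it. Of the 11 hepatocyte markers tested, 0 were called under DEN and 1 was called higher under DEN + PB. With PB the hepatocyte sums did not overlap and were higher in KO, at 1827 to 2230 against 1438 to 1675 in WT. These sums are relative to the array's 75th percentile, whose mean was 186.5 in KO DEN + PB and 239.2 in WT DEN + PB. The array with the sum of 2230 had a 75th percentile of 136.9, and the array with 1438 had 294.2. The part of array brightness in this separation was not tested. There 10 of 11 hepatocyte markers were higher in KO, with a median log2 change of 0.31 against 0.30 for the members. Without PB the hepatocyte sums overlapped. Of the 2 adipocyte markers tested, both were called lower in KO under DEN, and *Lep* and *Plin1* were not above background on any array. The adipocyte sums did not overlap between genotypes. They were 11.6 to 57.2 in WT and 0.96 to 6.95 in KO under DEN, and 4.47 to 7.29 and 0.87 to 2.85 with PB. In liver RNA, fewer cells of a type and less RNA per cell cannot be told apart, and the part of these cells in the members' differences was not tested.

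Of the 10 members, *Lcn2* alone did not overlap between WT mice with and without PB. *Lcn2*, which binds bacterial siderophores and is made by hepatocytes and neutrophils, stood at -0.73, -1.99, -1.79 and -2.14 in WT DEN and at 0.07, -0.65, -0.24 and 0.63 in WT DEN + PB. Every PB mouse was above every mouse without PB. The change was 3.06-fold (log2 1.61 ± 0.51 SE, 95% interval 0.53 to 2.70), the exact permutation p was 0.0286, and the limma adjusted p was 0.287, so it was not called. Hence 1 of 10 members did not overlap upward, where 3.21% of genes did, and 0 of 10 were called, where 0.737% of genes were. Within the 3 slides that hold both groups the difference was 0.08, 2.69 and 1.85. With the normexp background corrections the change was 0.89 and 1.06.

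In the KO mice *Lcn2* stood at -1.69, -0.43, -2.13 and 0.88 without PB and at -0.76, -0.53, -0.47 and 0.20 with it, so the groups overlapped widely. The change was 0.45 ± 0.51 SE (limma adjusted p = 0.843). The difference between the PB effects of the genotypes was 1.16 ± 0.72 SE (limma adjusted p = 0.934), with a 95% interval from -0.38 to 2.69, so a difference was not shown. Both values turned on single KO DEN mice: the PB change in KO was 1.03 without replicate 4, 0.025 without replicate 3 and 1.52 without replicates 2 and 4, where the difference between genotypes was 0.089. The summed level of the neutrophil markers was 4.45 to 9.86 in WT DEN and 4.73 to 6.04 in WT DEN + PB, with 0 of 8 markers called. In the KO mice it fell from 5.30 to 8.89 without PB to 2.32 to 3.61 with it, with 2 of 8 markers called lower. The summed level of the biliary markers was 11.9, 16.8, 31.8 and 12.97 in WT DEN and 17.7, 26.3, 33.9 and 35.5 in WT DEN + PB, with 2 of 5 markers called higher. In the KO DEN mice it was 14.6, 24.3, 12.3 and 36.5, in the same order as *Lcn2*, and in KO DEN + PB it was 12.03 to 15.53. In each other group the orders differed. WT DEN replicate 1 had the highest *Lcn2* level of its group (-0.73) and the lowest biliary sum (11.9). The part of neutrophils or biliary cells in the *Lcn2* levels was not tested.

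No member, *Lcn2* included, showed a PB effect past the threshold in either genotype. For the members other than *Lcn2*, the log2 changes lay between -0.18 and 0.24 in WT and between -0.39 and 0.15 in KO. In KO 0 of 10 members were called, where 2.13% of genes were. For *Orm1* the 95% interval in WT was -0.28 to 0.43 and in KO -0.55 to 0.17, and for *Orm2* it was -0.34 to 0.67 in WT and -0.61 to 0.40 in KO. The interval for *Saa2* was far wider, from -0.80 to 1.27 in WT. A difference in PB effect between genotypes was not shown for any member by the limma interaction (adjusted p from 0.934 to 0.991), where 0.0% of genes passed. By unadjusted p under 0.05, 0 of 10 members and 880 of 13302 genes did.

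Ordered by group mean, the neighbours in the order of the 4 groups rarely stood apart. Of 30 neighbouring pairs over the 10 genes, 4 differed by more than the larger of their SDs. These were KO DEN + PB over WT DEN + PB for *Orm1* and *Orm2*, and KO DEN over KO DEN + PB and KO DEN + PB over WT DEN for *Apcs*. *Saa1*, *Saa2*, *Saa3*, *Orm1* and *Orm2* shared the order KO DEN, KO DEN + PB, WT DEN + PB, WT DEN. *Lcn2* alone had WT DEN + PB on top.

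*Hp* and *Fgg* spanned a narrow range in the unscaled signal, and whether signals this bright still rise in proportion to the RNA was not tested. *Hp* read 70111.1 to 89005.3, a 1.27-fold range over 16 arrays, and *Fgg* read 71346.8 to 100707.9, a 1.41-fold range, while the 75th percentile of the arrays spanned 2.15-fold. Their scaled levels therefore followed the 75th percentile downward, with r = -0.94 and rho = -0.91 for *Hp* (permutation p = 1e-05 and 2e-05, adjusted 5e-05 and 0.0001 over the 10 genes) and r = -0.93 and rho = -0.95 for *Fgg* (permutation p = 1e-05 for both, adjusted 5e-05 and 0.0001). The value 1e-05 is the smallest that the resampling can give. Each scaled level has the 75th percentile subtracted, so a negative r with it is partly built in. The p-values given here for scaled levels, those of the *Saa* genes below included, therefore do not test a relation in the signals. Without the 2 farthest arrays r was -0.93 for *Hp* and -0.89 for *Fgg*. The unscaled signals of both rose with the 75th percentile, over their narrow ranges, at r = 0.59 and rho = 0.52 for *Hp* (permutation p = 0.01665 and 0.04095, adjusted 0.0452 and 0.102) and r = 0.77 and rho = 0.76 for *Fgg* (permutation p = 0.00043 and 0.00084, adjusted 0.00215 and 0.0042), with r = 0.40 and 0.74 without 2 arrays. The unscaled signal of *Crp* also rose, at r = 0.87 and rho = 0.82 (permutation p = 5e-05 and 0.00017, adjusted 0.0005 and 0.0017), and r = 0.82 without 2 arrays. The scaled levels of *Saa1*, *Saa2* and *Saa3* also fell with the 75th percentile, at r = -0.61, -0.64 and -0.57 and rho = -0.66, -0.69 and -0.62 (permutation p = 0.0124, 0.00651 and 0.01913 for r and 0.00643, 0.00438 and 0.01219 for rho, adjusted 0.031, 0.0217 and 0.0383 for r and 0.0161, 0.0146 and 0.0244 for rho), with r = -0.63, -0.63 and -0.57 without 2 arrays. Their unscaled signals had r of -0.17, -0.29 and -0.042 with it (adjusted p = 0.742, 0.476 and 0.877). The part of array brightness in the scaled differences of these 5 genes was not tested.

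**Figure D4:**
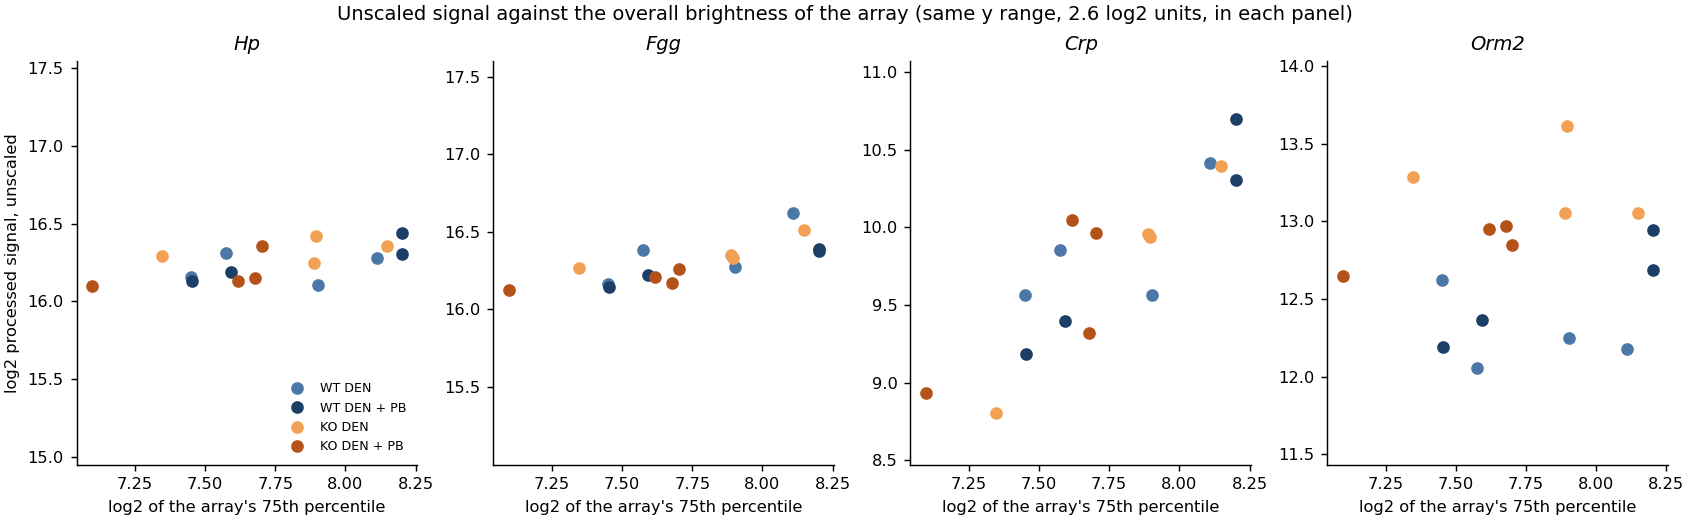
Unscaled log2 signal (y axis, 2.6 log2 units in each panel) against log2 of the array's 75th percentile (x axis) for *Hp*, *Fgg*, *Crp* and *Orm2*, with 1 point per array coloured by group. *Hp* (r = 0.59), *Fgg* (r = 0.77) and *Crp* (r = 0.87) all climb with the 75th percentile, *Hp* and *Fgg* over 1.27-fold and 1.41-fold ranges, and *Orm2* reads higher on every KO DEN array than on every WT DEN array.

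*Crp* was not called in any comparison. It stood at 2.12, 2.30, 2.28 and 1.66 in WT DEN, 2.10, 1.81, 2.50 and 1.73 in WT DEN + PB, 2.25, 1.46, 2.07 and 2.04 in KO DEN, and 2.43, 1.64, 1.83 and 2.26 in KO DEN + PB. All 4 ranges overlapped. The array that was highest for *Saa2*, KO DEN replicate 2, was the lowest of 16 for *Crp*.

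The signalling genes of the response, from lists of ligands, receptors, kinases and transcription factors, and feedback inhibitors, held 4 called genes. Of the 10 receptors and the 11 feedback inhibitors tested, 0 were called in any of the 5 comparisons, *Il6ra*, *Il6st* and *Socs3* included. Of 6 ligands tested, 1 was called: *Il1a*, the gene of interleukin 1 alpha, fell with PB in KO by 1.36 on the log2 scale (limma adjusted p = 0.0181) and was lower in KO than in WT under DEN + PB (log2 change -1.56 ± 0.28 SE, limma adjusted p = 0.00329). It cleared background in 2 of 4 mice of KO DEN + PB and in all 4 of each other group, and neither call held under the normexp background corrections, where the changes were -0.075 and -0.080 with PB in KO and -0.44 and -0.094 between genotypes, so its size is uncertain.

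Of 18 kinases and transcription factors tested, 3 were called. *Stat3*, which carries the interleukin 6 signal, was higher in KO than in WT both under DEN (log2 change 1.14 ± 0.28 SE, limma adjusted p = 0.0402) and under DEN + PB (1.00 ± 0.28 SE, limma adjusted p = 0.0425). Its levels were 3.67, 3.10, 3.36 and 3.25 in WT DEN, 3.72, 5.31, 4.20 and 4.70 in KO DEN, 3.45, 3.44, 2.53 and 3.22 in WT DEN + PB, and 3.91, 4.21, 4.30 and 4.23 in KO DEN + PB. Every KO mouse was above every WT mouse, as for 4.6% of genes under DEN and 7.48% under DEN + PB. KO DEN replicates 2 and 4 were highest, as for *Saa2*, and a part of *Stat3* in the *Saa* levels was not tested. Each call held in 13 of 28 alternatives, and under DEN the change was 0.61 without KO DEN replicates 2 and 4. *Fos* and *Jun*, the AP-1 partners, were lower in KO under DEN + PB (log2 changes -1.11 and -0.98, limma adjusted p = 0.0186 and 0.0466), and the calls held in 23 and 11 of 28 alternatives. Under the normexp corrections the *Fos* change was -0.44 and -0.090, so its size is uncertain.

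Of 43 other positive acute phase genes tested, 1 was called higher and 1 lower with PB in WT, where 0.737% of all genes were called. With PB in KO, 1 was called higher and 2 lower, where 2.13% of all genes were called. *Orm3*, a further mouse orosomucoid gene, rose in both genotypes. It stood at -0.30, -1.59, -1.08 and -1.43 in WT DEN, 1.02, 0.91, 0.93 and 2.14 in WT DEN + PB, -1.04, 0.62, -0.59 and -0.42 in KO DEN, and 1.92, 1.35, 2.17 and 2.06 in KO DEN + PB. The rise was 2.35 ± 0.36 SE log2 units in WT and 2.23 ± 0.36 SE in KO (limma adjusted p = 0.00261 and 0.00321), and it was called in 27 and 28 of 28 alternatives. The members *Orm1* and *Orm2* were not called with PB in either genotype, and cross-hybridisation among these related genes was not tested.

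*Hamp*, the gene of the iron hormone hepcidin, fell with PB in WT, from 7.60, 7.50, 7.54 and 6.97 to 5.70, 3.77, 5.60 and 5.96. The fall was 2.14 log2 units (limma adjusted p = 0.0124). This call held in 23 of 28 alternatives, and the log2 change was -1.65 without WT DEN + PB replicate 2. In the KO mice *Hamp* stood at 7.61, 7.56, 7.39 and 6.60 without PB and at 7.14, 7.76, 7.20 and 6.56 with it. KO thus exceeded WT under DEN + PB by 1.91 ± 0.39 SE (limma adjusted p = 0.00766), called in 27 of 28 alternatives. The limma interaction called 0 of the 43 genes, so a difference in PB effect between genotypes was not shown for *Hamp*. The transferrin receptor gene *Tfrc* was lower in KO than in WT under DEN + PB (log2 change -1.26, limma adjusted p = 0.0357). Its levels there were 0.93, 1.34, 2.05 and 0.45 in WT against 0.53, -0.95, -0.01 and 0.18 in KO, so the groups overlapped.

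**Figure D5:**
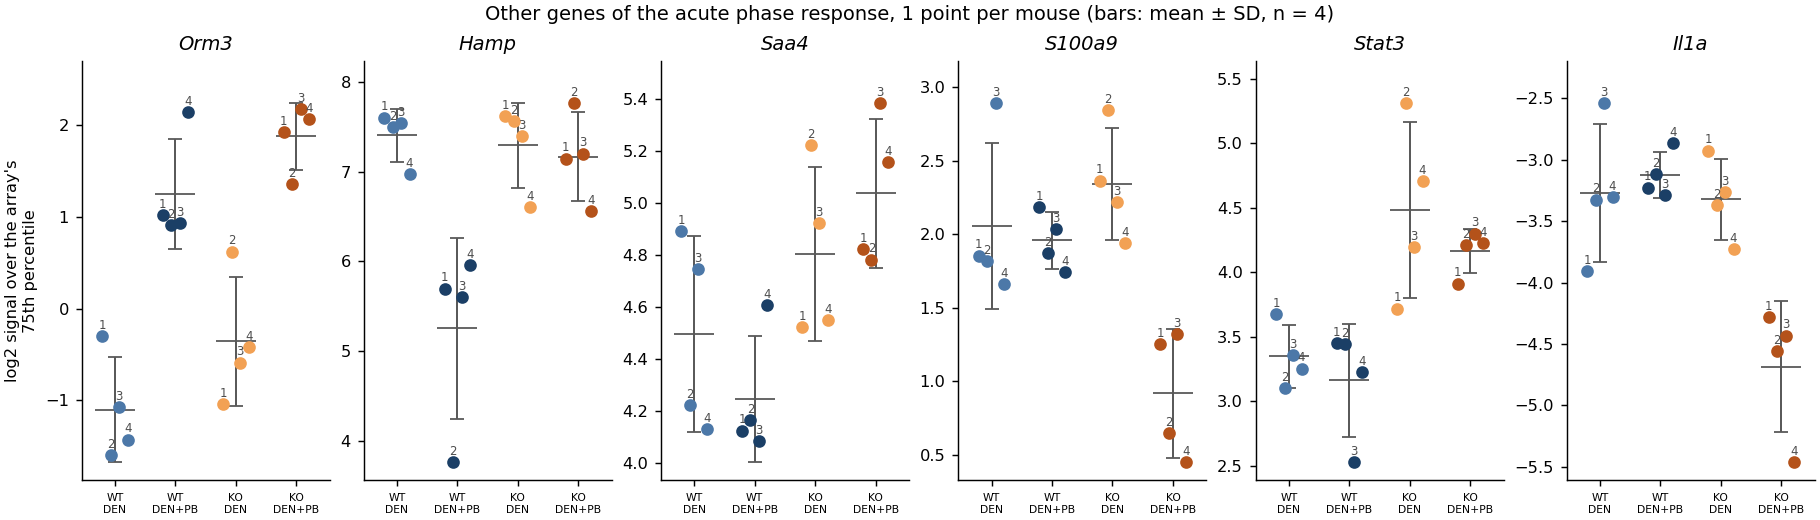
Log2 level relative to the array's 75th percentile (y axis) of 6 further genes of the response in the 4 groups (x axis), with 1 point per mouse, its replicate number, and the group mean with SD (n = 4). *Orm3* is high in both PB groups, *Hamp* is low in WT DEN + PB, *Stat3* is higher in KO, and *S100a9* and *Il1a* are lowest in KO DEN + PB.

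The calprotectin genes *S100a8* and *S100a9*, which are also on the neutrophil list, fell with PB in KO by 1.30 and 1.42 (limma adjusted p = 0.0406 and 0.0110), calls that held in 11 and 26 of 28 alternatives. Under DEN + PB they were lower in KO than in WT by 1.34 and 1.04 log2 units (limma adjusted p = 0.0145 and 0.0294). In that comparison 3 of 43 genes were called higher, *Hamp*, *Saa4* and *Plg*, and 3 were called lower, where 7.6% of all genes were called. Called or not, 34 of the 43 were higher. *Saa4*, the constitutive serum amyloid A gene, was 0.79 ± 0.22 SE higher (limma adjusted p = 0.0371), and plasminogen (*Plg*), named here after its value was seen, was 0.68 ± 0.19 SE higher (limma adjusted p = 0.0373). The *Saa4* and *Plg* calls held in 17 and 18 of 28 alternatives, and both were lost without any scaling. In KO against WT under DEN, 0 of 43 were called, where 2.76% of all genes were.

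Of 19 negative acute phase genes tested, 0 were called in WT with PB and 0 in KO against WT under DEN. *Cyp3a11*, a cytochrome P450 that PB induces, rose with PB in KO by 0.87 ± 0.19 SE (limma adjusted p = 0.0286). Under DEN + PB, *Hsd11b1*, which regenerates active glucocorticoid, and the apolipoprotein gene *Apoa5* were higher in KO than in WT by 0.60 and 0.75 (limma adjusted p = 0.0313 and 0.0459). These 3 calls were lost under quantile normalization and with slide as a block. The median change of the 19 genes in KO against WT under DEN + PB was 0.28, with 16 of 19 above 0, close to the 0.30 of the members.

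The genes whose levels ran most like each member over the 16 arrays are given as a description, since all levels on an array share its scaling. *Tsen54* was first for each serum amyloid A gene, with r = 0.89 for *Saa1*, 0.91 for *Saa2* and 0.89 for *Saa3*, followed by *Arhgap45* and *Cluh* for *Saa1*, *Pask* and *Tonsl* for *Saa2*, and *Pask* and *Cluh* for *Saa3*. *Orm2* ran with *Hpx* (r = 0.93), *Tm4sf4* and *Btbd9*, and *Orm1* with *H2ac4* (r = 0.89), *Mef2d* and *Zfp219*. *Apcs* ran with *C4b* (r = 0.90), *Tacc1* and *Cbfa2t3*, and *Lcn2* with *Ifi27l2b* (r = 0.84), *Nol3* and *Arhgap22*. *Hp* ran with *Ambp* (r = 0.97), *Rpl7a* and *Rps23*, *Fgg* with *Rbp4* (r = 0.98), *Fabp1* and *Apoc1*, and *Crp* with *Acp1* (r = 0.92), *Prmt3* and *Fam120a*. *Hpx* and *C4b* are on the list of other positive acute phase genes and *Rbp4* is on the negative list.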

How the data were processed

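Liver RNA of 16 mice was hybridised to Agilent 1-colour mouse arrays, 4 per group on 4 slides. The deposited processed signal intensity per spot was made by the authors with Feature Extraction (12.0.3.1 in the file headers), which subtracts background. The deposited series table equals this intensity averaged per probe, without scaling. Here spots of a probe were averaged, log2 was taken and the 75th percentile of each array was subtracted. Control spots were left out. A probe was kept, as 24456 of 41174 were, where every array of some group had it well above background. Symbols came from RefSeq through the accession in the array design, for 28223 probes.

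The 4 group means were fitted in limma 3.58.1 (R 4.3.3) with lmFit and eBayes over all 16 arrays, and p-values were adjusted by Benjamini-Hochberg over all tested probes. A gene takes the value of its brightest probe by mean over 16 arrays. Single genes were also tested by the two-sided exact permutation test over 70 assignments, 40 tests in all and not adjusted. Correlations used 100000 resamples (scipy 1.17.1). The fit was tested on simulated data. Each array is 1 mouse, and the number of arrays limits the precision.

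Named were the 10 members, list genes called in a comparison, up to 6 per list by smallest adjusted p, and the 3 genes most like each member. The members and lists were chosen with earlier results of these data known. Alternatives were quantile and median scaling, 2 normexp corrections (offset 50, on the median signal), the series table, no filter, slide and replicate blocks, no moderation, 8 arrays, the mean of probes and leaving out arrays. The replicate numbers did not pair the mice: the deviations of same-numbered arrays correlated at -0.268 to 0.335.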

Additional observations from a re-analysis of the deposited data

Results flagged for a closer look

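*Orm2* in WT DEN + PB replicate 3 was flagged because it lay far from its group, at a log2 level of 4.48 against 4.74 to 4.77 in the other 3 mice. The gap to the nearest mouse was 0.882 of the range of the group, above Dixon's 95% critical value for 4 samples. The array is in the *Orm2* comparison with KO DEN + PB and lies on the lower side, away from the KO values. It was the only flag over the 10 genes in the 4 groups, and chance flags about 1 in 20 groups.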

How the results depend on the processing

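The 1 member called in KO against WT under DEN was the count that moved most. It was 2 (*Orm1* and *Orm2*) under quantile normalization and with the mean of probes. It was 0 under median scaling, normexp with its default fit, the unscaled series table, no filter, slide as a block, no moderation, the 8 arrays alone, and without KO DEN replicates 2 and 4. Leaving out 1 array at a time gave 0 to 2, and the count was 0 without WT DEN replicate 2, 3 or 4, KO DEN replicate 2 or 4, or replicate 1, 2 or 4 of either PB group. The replicate numbers do not pair the mice, and with the replicate block 0 members were called (*Orm2* adjusted p = 0.0648 in limma). *Orm2* itself was called in 8 of 28 alternatives, at log2 changes of 0.52 to 1.14, and kept its sign in all 28. Without KO DEN replicates 2 and 4, chosen after seeing the data, *Saa1*, *Saa2* and *Saa3* turned to -0.11, -0.15 and -0.030, and 1 member (*Lcn2*, adjusted p = 0.0406 in limma) was called with PB in WT. *Orm2* was the 1 member called under DEN + PB with the 8 arrays alone. Of 38 further pairs of member and comparison, 30 turned sign under at least 1 alternative and 0 were called. Over all genes, normexp with its default fit called 12 with PB in WT, 40 with PB in KO, 12 in KO against WT under DEN and 36 under DEN + PB, against 98, 283, 367 and 1011. KO against WT under DEN gave 54 on the unscaled table, 142 with no filter, 140 with the slide block, 200 with no moderation, 175 with 8 arrays and 45 without KO DEN replicates 2 and 4. The other counts past 1.5-fold were 61 with PB in WT and 147 with PB in KO unscaled, 160 with PB in KO and 647 under DEN + PB with no filter, 178 with PB in KO from 8 arrays, 101 with PB in KO without the 2 arrays, and, with normexp without outlying backgrounds, 242 under DEN and 429 under DEN + PB. The causes were not tested.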
